A study of Mus musculus with 16 samples.

Results

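The genes described are 9 that encode factors released by brown and beige fat or cues for the nerves of that tissue: S100b, Clstn3, Nrg4, Slit2, Bmp8b, Fgf21, Gdf15, Metrnl and Cxcl14. They were taken by gene symbol from the expression matrix, in which all 9 were found among 17883 genes. The libraries came from adipose tissue of C57BL/6 mice aged 8 weeks, in 8 groups of 2, and covered input RNA, RNA that an anti-m6A antibody precipitated (m6A is N6-methyladenosine, a mark on mRNA) and ribosome footprints. In the cKO cold group, METTL3 flox/flox mice with 1 copy of Adipoq-Cre (Adipoq-Cre +/-), a Cre that acts in adipocytes and not in the other cells of the tissue, were housed singly at 4 °C for 7 days. In the WT cold group, METTL3 flox/flox mice without Cre were kept in that same cold. In the WT RT group, METTL3 flox/flox mice without Cre stayed untreated at room temperature, so the floxed allele is common to all 3 conditions. Input and m6A libraries covered the 3 conditions, and footprints the cold ones.

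Brown and beige adipocytes burn fuel for heat when sympathetic nerves release noradrenaline onto them, and they send signals back to nerves, blood vessels, immune cells and distant organs. Calsyntenin 3 (Clstn3) is an adhesion protein of synapses, and an adipocyte form of it, Clstn3b, promotes release of the calcium-binding protein S100b, which stimulates growth of sympathetic axons into brown fat in mice. Neuregulin 4 (Nrg4) and Bmp8b are adipocyte ligands tied to nerve and vessel growth, and Fgf21 and Gdf15 are stress hormones that act on other organs. METTL3 catalyses the placing of m6A on mRNA, and the comparisons ask how the RNA of these factors, its m6A and its ribosome load differed with cold and with the loss of METTL3 in fat cells.

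Input libraries held 3895031 to 8673393 reads on the listed genes, m6A libraries 4883129 to 6426541, and footprint libraries at least 1676208 to 2461267. Mettl3 itself had 3.83 and 1.90 RPKM (reads scaled to transcript length and library size) in cKO cold inputs, 5.24 and 3.66 in WT cold inputs and 10.8 and 9.27 in WT RT inputs, so the cKO and WT cold inputs overlapped. The gene-level value does not separate deleted from intact exons, and the tissue holds cells in which the Cre is inactive. Adipoq, the adipocyte hormone adiponectin, stood at 471 to 724 RPKM in all 6 inputs. Library codes of the WT RT samples come from a different series than those of the cold samples, so the effects of temperature and of code series cannot be told apart. Summed RPKM of 16 T and B cell markers was 2.03 and 2.36 in WT cold inputs, against 1054 and 985 in WT RT inputs. Summed RPKM of 17 skeletal muscle markers was 397 in WT RT input replicate 1 and 31.5 in replicate 2, and 9.41 and 239.7 in cKO cold inputs 1 and 2. In bulk tissue, fewer cells of a type and less RNA per cell cannot be told apart. Fold changes below are those of RPKM + 1 on the log2 scale with their standard errors (n = 2 libraries per group), and a call is a limma adjusted p below 0.05 over all genes tested.

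RefSeq lists 11 promoters for the 9 genes (build GRCm38.p6, 250 bases before the start of transcription and 50 after it). They were searched on both strands for 4 motifs: the nuclear receptor half-site AGGTCA, the cAMP response element TGACGTCA, the C/EBP-ATF response element TGATGNAAT and the GC box GGGCGG. The cAMP response element is bound by CREB, which acts downstream of noradrenaline, and the C/EBP-ATF response element by ATF4 of the stress response. Shown as examples are promoters of Nrg4, Clstn3 and Fgf21, high in WT cold, and of Metrnl, high in cKO cold. Capitals mark motif matches on either strand, and each sequence runs 5′ to 3′ along its gene.
Nrg4 promoter, chr9:55283576-55283875, minus strand: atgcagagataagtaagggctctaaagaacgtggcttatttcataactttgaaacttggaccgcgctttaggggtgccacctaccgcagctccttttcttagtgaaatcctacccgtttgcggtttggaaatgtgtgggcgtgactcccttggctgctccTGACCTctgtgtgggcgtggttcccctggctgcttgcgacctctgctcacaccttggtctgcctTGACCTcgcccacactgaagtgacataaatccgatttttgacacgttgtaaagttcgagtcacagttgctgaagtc
Clstn3 promoter, chr6:124464735-124465034, minus strand: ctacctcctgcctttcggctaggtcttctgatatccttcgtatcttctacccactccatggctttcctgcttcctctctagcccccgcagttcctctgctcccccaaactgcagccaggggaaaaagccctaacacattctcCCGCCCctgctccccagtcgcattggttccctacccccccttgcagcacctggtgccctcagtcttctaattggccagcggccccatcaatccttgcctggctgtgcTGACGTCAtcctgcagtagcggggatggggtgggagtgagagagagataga
Fgf21 promoter, chr7:45615441-45615740, minus strand: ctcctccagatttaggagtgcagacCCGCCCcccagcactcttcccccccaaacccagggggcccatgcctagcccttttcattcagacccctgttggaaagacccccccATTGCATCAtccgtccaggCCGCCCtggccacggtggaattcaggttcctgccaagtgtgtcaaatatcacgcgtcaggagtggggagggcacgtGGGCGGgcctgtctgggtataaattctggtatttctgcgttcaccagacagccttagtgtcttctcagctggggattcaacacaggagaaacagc
Metrnl promoter, chr11:121702177-121702476, plus strand: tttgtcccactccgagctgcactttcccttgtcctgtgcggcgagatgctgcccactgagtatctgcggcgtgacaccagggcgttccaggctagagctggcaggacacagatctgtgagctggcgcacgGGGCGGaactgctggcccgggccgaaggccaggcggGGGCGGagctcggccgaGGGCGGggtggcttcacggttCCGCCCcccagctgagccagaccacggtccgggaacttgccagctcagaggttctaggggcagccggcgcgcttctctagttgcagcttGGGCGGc
The Nrg4 promoter holds 2 half-sites, whose first bases lie 90 and 26 bases before the start. Half-sites also occur in Gdf15 and Cxcl14, so 3 of the 11 member promoters hold one, against 16.3% of 32851 promoters of the same length. The cAMP response element of Clstn3 begins 1 base before the start in the promoter shown and is the only one in the 11, against 1.79% of all promoters. The second listed promoter of Clstn3 holds none of the 4 motifs. The C/EBP-ATF response element of Fgf21 begins 140 bases before the start, in 1 of the 11, against 0.965% of all promoters. Matches to the GC box were found in 6 of the 11, with 5 in Metrnl, against 35.7% of all promoters. The S100b promoter holds none of the 4 motifs. A match describes letters and is not evidence of binding.

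In input RNA, the cold comparison asks how the factors' RNA responded to 7 days at 4 °C. Of the 8 members tested, 6 were called higher in WT cold than in WT RT (S100b, Clstn3, Nrg4, Bmp8b, Fgf21 and Cxcl14), against 6.52% of 12667 genes, and 0 were called lower, against 51.2% of genes. Bmp8b and Fgf21 reached the filter of 1 RPKM in 2 libraries through WT cold alone, so they had to differ and add nothing to that count. Slit2 did not reach it. Without WT cold input replicate 1 or replicate 2, Bmp8b and Fgf21 did not reach it either, and 3 members were called higher. The median gene stood at -0.67 on the log2 scale in this comparison.

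**Figure D1:**
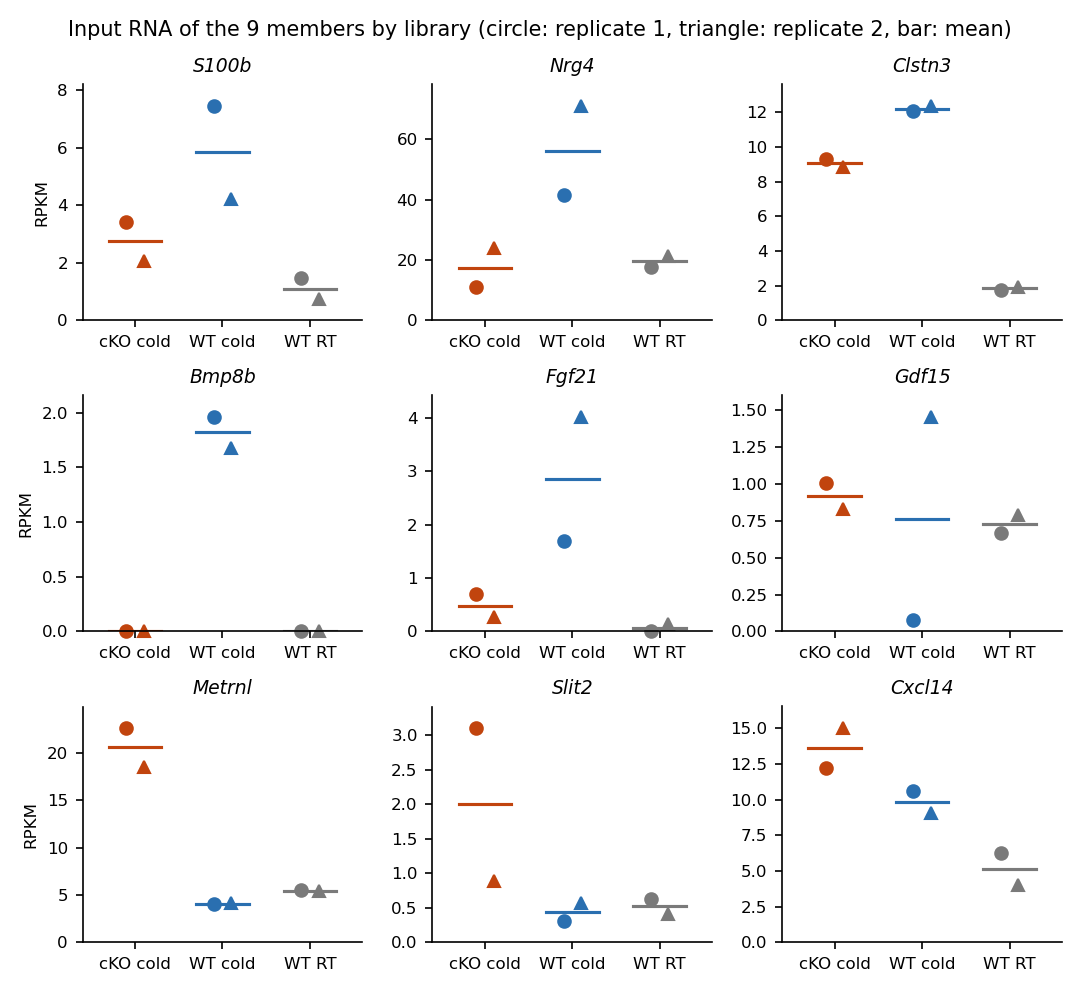
Input RPKM (vertical axes from 0) of the 9 genes in each library, for cKO cold, WT cold and WT RT from left to right. Circles are replicate 1, triangles replicate 2 and bars the mean of 2 libraries. Clstn3 is lowest in WT RT, at 1.77 and 1.92 RPKM, Bmp8b has reads in WT cold alone, and Metrnl is highest in cKO cold, at 22.6 and 18.5 RPKM.

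Of the nerve cues, Clstn3 differed most clearly in the cold. Its level was 12.1 and 12.4 RPKM in WT cold, against 1.77 and 1.92 RPKM in WT RT (log2 fold change 2.22 ± 0.18, limma adjusted p = 0.000179). The groups were far apart and their replicates close together. Clstn3 is on chromosome 6 (124430756 to 124464784), and RefSeq lists Clstn3b as a synonym of it, so the gene-level value does not separate the adipocyte form from the synaptic one.

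S100b, on chromosome 10 (76253836 to 76261319), had 7.46 and 4.24 RPKM in WT cold, against 1.48 and 0.728 RPKM in WT RT. Every WT cold library was above both WT RT libraries (log2 fold change 1.69 ± 0.34, limma adjusted p = 0.00554). The call rests on 124 reads in WT cold and 25 in WT RT. Glial cells also make S100b. Summed RPKM of 19 Schwann cell and nerve markers was 160 and 111 in WT cold inputs, against 208 and 157 in WT RT inputs, with the glial marker Gfap at 0 in both groups. Of the 13 such markers tested 1 was called higher, against 6.52% of all genes, and 2 lower, against 51.2%. Their median was -0.18, beside -0.67 for all genes, and with median-ratio scaling 2 were higher and 1 lower. The Schwann cell cadherin Cdh19 was the one called higher, at 2.30 and 2.87 RPKM in WT cold, against 1.12 and 1.07 RPKM in WT RT (0.77 ± 0.25, limma adjusted p = 0.0358). The part of these cells in the S100b level was not tested.

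Nrg4, an EGF-family ligand of the receptors Erbb3 and Erbb4, was the most abundant member per length in the WT inputs. It had 41.5 and 71.1 RPKM in WT cold, against 17.8 and 21.3 RPKM in WT RT, which did not overlap (log2 fold change 1.44 ± 0.38, limma adjusted p = 0.0167). Leaving out WT RT input replicate 1 (limma adjusted p = 0.0758) or replicate 2 of the WT cold inputs (limma adjusted p = 0.0872) ended the call. Its annotated span on chromosome 9 (55220222 to 55283654) overlaps Fbxo22, and the strand setting of the counting is not given in the sources used here.

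Slit2, a guidance cue that repels or branches axons through Robo receptors, stayed low in both WT conditions. It had 0.311 and 0.577 RPKM in WT cold, against 0.630 and 0.416 RPKM in WT RT, with overlapping groups. In reads, these were 41 in WT cold and 62 in WT RT, a ratio of 0.763 with a 95% interval for counting error of 0.501 to 1.15.

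Bmp8b, a TGF-beta family ligand of brown adipocytes that raises their response to noradrenaline in mice, had 1.96 and 1.68 RPKM in WT cold and was listed at 0 in both WT RT inputs. The 72 WT cold reads against 0 make it at least 27.7-fold higher, taking 3 reads over the WT RT group as the floor (limma adjusted p = 0.000906). It lies on chromosome 4 (123104308 to 123126094) and overlaps Oxct2b. Its near-identical paralog Bmp8a ran the other way, with 0 and 0.0934 RPKM in WT cold, against 0.376 and 0.449 RPKM in WT RT, or 1 read against 15. How the counting shared reads between the paralogs is not given in the sources used here, and its part in these values was not tested.

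Fgf21, a hormone that acts through the co-receptor Klb, had 1.70 and 4.01 RPKM in WT cold, against 0 and 0.142 RPKM in WT RT (log2 fold change 1.78 ± 0.33, limma adjusted p = 0.00423). The reads were 31 in WT cold and 1 in WT RT, a ratio of 35.8 with a 95% interval for counting error of 5.96 to 1458. Metrnl, a meteorin-like cytokine of muscle and fat, had 4.03 and 4.17 RPKM in WT cold, against 5.53 and 5.40 RPKM in WT RT. Its WT cold libraries were both below the WT RT ones, but the log2 fold change of -0.34 ± 0.18 missed the threshold (limma adjusted p = 0.145), and it was 0.28 with median-ratio scaling and 0.51 with quantile scaling. Gdf15, a stress cytokine that signals through GFRAL in the hindbrain, had 0.0746 and 1.45 RPKM in WT cold, against 0.668 and 0.787 RPKM in WT RT. The WT cold replicates lay on both sides of the WT RT ones, on 1 and 10 reads, and no difference was detectable at this depth (-0.09 ± 0.38, limma adjusted p = 0.851).

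Cxcl14, a chemokine that brown fat releases and that attracts macrophages in mice, had 10.6 and 9.09 RPKM in WT cold, against 6.29 and 3.99 RPKM in WT RT. The groups did not overlap (log2 fold change 0.84 ± 0.24, limma adjusted p = 0.0206). Leaving out WT RT input replicate 2 (limma adjusted p = 0.153) or replicate 1 of the WT cold inputs (limma adjusted p = 0.0709) ended the call.

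Receptors for these factors differed in direction in the cold. Of 20 receptors and co-receptors tested, 1 was called higher, against 6.52% of all genes, and 7 lower, against 51.2%, with a median of -0.41, beside -0.67 for all genes. With median-ratio scaling 4 were higher and 2 lower. Klb, the Fgf21 co-receptor, had 32.8 and 41.5 RPKM in WT cold, against 16.6 and 19.3 RPKM in WT RT (1.00 ± 0.20, limma adjusted p = 0.00515). Its partner Fgfr1 ran the other way, at 19.8 and 18.6 RPKM in WT cold, against 39.9 and 38.2 RPKM in WT RT (-0.99 ± 0.13, limma adjusted p = 0.00106), but lost its call with median-ratio scaling (-0.26, limma adjusted p = 0.133). Among the Slit receptors, Robo1 fell by 1.51 ± 0.24 (limma adjusted p = 0.0021) and Robo2 by 1.05 ± 0.19 (limma adjusted p = 0.00376), while endothelial Robo4 (-0.30, limma adjusted p = 0.243) did not pass. Cxcr4, a chemokine receptor of lymphocytes, fell by 3.13 ± 0.43 (limma adjusted p = 0.00124), beside the T and B cell marker sums given above. The Nrg4 receptor Erbb3 stood at 1.57 and 0.634 RPKM in WT cold, against 1.52 and 1.12 RPKM in WT RT, and Erbb4 was at or below 0.267 RPKM in every input. Of the other receptors taken as direct partners, Ager had 0 and 1.31 RPKM in WT cold, against 2.26 and 1.58 RPKM in WT RT. Ackr3 had 8.16 and 4.32 RPKM, against 10.3 and 7.76 RPKM, and Kit 8.47 and 3.27 RPKM, against 7.38 and 9.09 RPKM. Gfral is not in the matrix.

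Other secreted factors and nerve cues gave a mixed picture in the cold. Over all genes, 6.52% were called higher and 51.2% lower. Of 20 other factors reported to be secreted by brown or beige fat and tested here, 3 were called higher and 8 lower (median -0.46). With median-ratio scaling these were 4 and 4. Kng2, a kininogen, rose by 2.67 ± 0.30 (limma adjusted p = 0.000574), and C1qtnf6, a C1q and TNF related protein, fell by 1.93 ± 0.40 (limma adjusted p = 0.00654). Metrn, the paralog of Metrnl, fell by 1.63 ± 0.21 (limma adjusted p = 0.00107). Of 13 other nerve growth and guidance cues 0 were called higher and 2 lower (median -0.54), namely the calsyntenin Clstn1 (-0.65) and the semaphorin Sema3a (-0.62). With median-ratio scaling these became 1 higher and 0 lower, and Clstn1 stood at 0.05. Of 16 nerve growth factor and guidance receptors 0 were called higher and 9 lower (median -0.91), or 1 and 5 with median-ratio scaling, and 51.2% of all genes were called lower. Among those called lower were Gfra2, a co-receptor of neurturin (-2.38 ± 0.24), and Ngfr, a receptor of neurotrophins (-1.86 ± 0.22). Of 17 thermogenic and beige markers tested, 14 were called higher and 2 lower.

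The second comparison in input RNA asks which of these factors differed between cKO cold and WT cold, within 1 series of library codes. Of the 8 members tested, 1 was called higher in cKO cold (Metrnl), against 23.6% of 12667 genes, and 3 were called lower (Nrg4, Bmp8b and Fgf21), against 2.92% of genes. Bmp8b and Fgf21 again passed the filter through WT cold alone, where they are high, so their calls are no support. Of the other 6 members tested, Nrg4 was the 1 called lower. The median gene stood at 0.40. This comparison and the cold comparison share the WT cold libraries. Without WT cold input replicate 1 or cKO cold input replicate 1, 2 members were called, and without WT cold input replicate 2, 1 was, Metrnl.

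**Figure D2:**
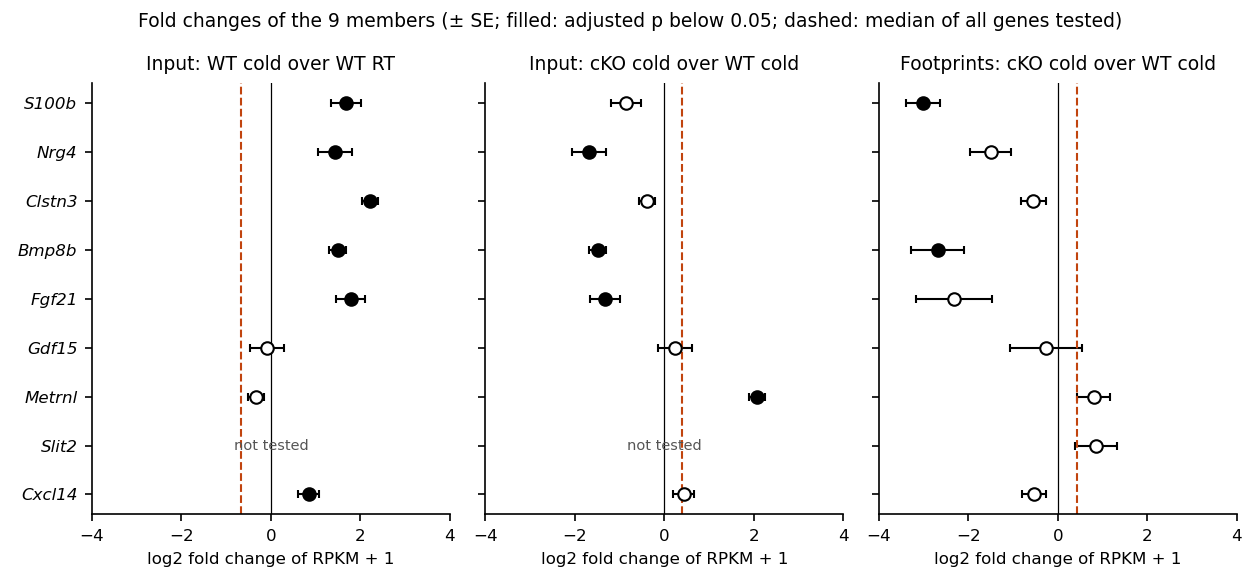
Log2 fold changes of RPKM + 1 (horizontal axes) with standard errors for the 9 genes in WT cold over WT RT input, cKO cold over WT cold input and cKO cold over WT cold footprints. Filled points passed the limma test and dashed lines mark the median of all genes tested, at -0.67, 0.40 and 0.42. Metrnl is the only called member above 0 in cKO cold input, and S100b has the lowest value in footprints.

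Nrg4 had 11.0 and 24.0 RPKM in cKO cold, against 41.5 and 71.1 RPKM in WT cold. All cKO cold values were below all WT cold ones (log2 fold change -1.67 ± 0.38, limma adjusted p = 0.0225). The call ended without replicate 2 of the WT cold inputs (limma adjusted p = 0.092), without replicate 1 of the cKO cold inputs (limma adjusted p = 0.0737) and with no filter on low values (limma adjusted p = 0.0523). The cKO cold libraries lay on both sides of the WT RT ones, which had 17.8 and 21.3 RPKM.

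S100b had 3.43 and 2.08 RPKM in cKO cold, against 7.46 and 4.24 RPKM in WT cold. The groups did not overlap, but the log2 fold change of -0.85 ± 0.34 did not pass (limma adjusted p = 0.1). Clstn3 had 9.28 and 8.83 RPKM in cKO cold, against 12.1 and 12.4 RPKM in WT cold, and its difference of -0.39 ± 0.18 on the log2 scale missed the threshold as well (limma adjusted p = 0.133). The calls depended on the scaling: with median-ratio scaling S100b stood at -1.26 (limma adjusted p = 0.044) and Clstn3 at -0.85 (limma adjusted p = 0.0265). Clstn3 averaged 9.05 ± 0.318 RPKM in cKO cold, 12.2 ± 0.211 RPKM in WT cold and 1.84 ± 0.106 RPKM in WT RT (SD, n = 2), so its cKO cold level lay closer to WT cold than to WT RT.

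Bmp8b was listed at 0 in both cKO cold inputs, against 1.96 and 1.68 RPKM in WT cold. With 0 reads against 72 it was at least 15.4-fold lower, taking 3 reads over the cKO cold group as the floor (limma adjusted p = 0.00545). Bmp8a had 0.921 and 0 RPKM in cKO cold, against 0 and 0.0934 RPKM in WT cold, or 10 reads against 1. Fgf21 had 0.699 and 0.270 RPKM in cKO cold, against 1.70 and 4.01 RPKM in WT cold (-1.32 ± 0.33, limma adjusted p = 0.0296). Its reads were 4 in cKO cold and 31 in WT cold, which is 4.96 times lower with a 95% interval for counting error of 1.76 to 19.4. The Fgf21 call was lost under 8 of the alternatives (limma adjusted p = 0.0531 to 0.185), among them leaving out either cKO cold or either WT RT input, and it was not tested without either WT cold input.

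Metrnl had 22.6 and 18.5 RPKM in cKO cold, against 4.03 and 4.17 RPKM in WT cold. The groups were far apart (log2 fold change 2.07 ± 0.18, limma adjusted p = 0.00369), and 1.65 with median-ratio scaling. In mice Metrnl is made by several cell types, macrophages among them. Summed RPKM of 19 macrophage markers was 3642 and 3543 in cKO cold inputs, against 1484 and 1798 in WT cold inputs. The list holds Lpl, the 1 of the 19 called higher in WT cold than in WT RT, where 11 were called lower. The sum thus mixes genes that moved differently and does not measure macrophages alone. In cKO cold over WT cold, 14 of the 19 were called higher, against 23.6% of all genes. Summed RPKM of 20 fibroblast and preadipocyte markers was 5761 and 2976 in cKO cold inputs, against 2103 and 1910 in WT cold inputs. Of these 20, 15 were called higher, against the same 23.6% of all genes. With median-ratio scaling 12 of the macrophage markers and 5 of the fibroblast and preadipocyte markers were called higher. The part of these cells in the Metrnl level was not tested.

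Slit2 had 3.10 and 0.890 RPKM in cKO cold, against 0.311 and 0.577 RPKM in WT cold. Both cKO cold values were above the WT cold ones, but replicate 1 stood well above replicate 2, as did its fibroblast marker sum, whose part in the Slit2 level was not tested. The gene did not reach the filter and was not tested with limma. In reads, 136 in cKO cold against 41 in WT cold gave a ratio of 5.18, with a 95% interval of 3.63 to 7.54 that covers counting error only. Cxcl14 had 12.3 and 15.0 RPKM in cKO cold, against 10.6 and 9.09 RPKM in WT cold, without passing (0.43 ± 0.24, limma adjusted p = 0.205), and it stood at -0.03 with median-ratio scaling. Gdf15 had 1.00 and 0.831 RPKM in cKO cold, inside the range of 0.0746 to 1.45 RPKM in WT cold (0.24 ± 0.38, limma adjusted p = 0.649).

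Receptors and related cues lay near the median gene in cKO cold. Of 20 receptors and co-receptors tested 5 were called higher, against 23.6% of all genes, and 0 lower, against 2.92%. Their median was 0.46, beside 0.40 for all genes, and with median-ratio scaling 1 was higher and 0 lower. Fgfr1 had 39.9 and 36.3 RPKM in cKO cold, against 19.8 and 18.6 RPKM in WT cold (0.95 ± 0.13, limma adjusted p = 0.00641), and just missed the call with median-ratio scaling (0.48, limma adjusted p = 0.0501). Klb, at 48.9 and 65.6 RPKM in cKO cold and 32.8 and 41.5 RPKM in WT cold, did not pass (0.60, limma adjusted p = 0.0602). Ret, which signals with GFRAL for Gdf15 and with the Gfra co-receptors for glial cell line derived factors, rose by 1.61 ± 0.27 (limma adjusted p = 0.0103). Robo1 (0.76, limma adjusted p = 0.0548) and Robo2 (0.02, limma adjusted p = 0.951) did not pass.

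Of the 20 other secreted factors tested in input RNA, 5 were called higher and 2 lower in cKO cold (median 0.49), or 1 and 3 with median-ratio scaling. Over all genes, 23.6% were called higher and 2.92% lower, which is the share to set beside each list below. Slit3, a paralog of Slit2, had 66.4 and 54.3 RPKM in cKO cold, against 23.3 and 31.9 RPKM in WT cold (1.11 ± 0.19, limma adjusted p = 0.0103), and did not pass with median-ratio scaling (0.63, limma adjusted p = 0.0992). Fstl1, a follistatin-like glycoprotein of fibroblasts, rose by 1.58 ± 0.27 (limma adjusted p = 0.0107) and Metrn by 0.74 ± 0.21 (limma adjusted p = 0.0453). Kng2 fell by 1.44 ± 0.30 (limma adjusted p = 0.0167) and Pm20d1, an enzyme that makes N-acyl amino acids, by 1.16 ± 0.22 (limma adjusted p = 0.013). Pm20d1 reached the filter through WT cold alone, at 1.87 and 1.56 RPKM, so its call is no support. Of 13 other nerve cues 5 were called higher and 0 lower (median 0.55), or 1 and 0 with median-ratio scaling, led by the calsyntenin Clstn2 (1.44 ± 0.27), the semaphorin Sema3c (1.23 ± 0.29) and Slit3. Clstn1, the other calsyntenin of the list, rose by 1.09 ± 0.17 (limma adjusted p = 0.00818). Of 16 nerve growth factor and guidance receptors 6 were called higher and 1 lower, the neurotrophin receptor Ntrk3 (-1.87 ± 0.35), or 1 and 2 with median-ratio scaling. Of 17 thermogenic and beige markers tested, 0 were called higher and 13 lower.

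The m6A libraries show which transcripts the antibody enriched. Members called higher or lower in m6A than in input numbered 1 in cKO cold, against 46.6% of 13062 genes, 3 in WT cold, against 39.3%, and 1 in WT RT, against 50.6%. The WT cold count was 1, Metrnl, without WT cold m6A replicate 2. Bmp8b and Fgf21 passed the filter of this fit through WT cold alone, and Slit2 through cKO cold replicate 1 alone. No member was called for a change of enrichment without pairing. Between cKO cold and WT cold 0 members and 0% of genes were called, with 1311 genes at an unadjusted p under 0.05. Between WT cold and WT RT 0 members were called, against 0.0612% of genes, with 1486 at an unadjusted p under 0.05.

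Metrnl had more m6A than input signal in each of the 3 conditions. It had 65.8 and 52.2 RPKM in cKO cold m6A libraries, 11.5 and 10.4 RPKM in WT cold and 17.8 and 17.0 RPKM in WT RT. Divided by the input of the same number, these were 2.91 and 2.82 in cKO cold, 2.86 and 2.51 in WT cold, and 3.23 and 3.14 in WT RT. The median gene had 0.758 and 0.762 in cKO cold, 0.856 and 0.896 in WT cold, and 0.818 and 0.837 in WT RT. Metrnl was called enriched in cKO cold (1.47 ± 0.15, limma adjusted p = 4.84e-05), in WT cold (1.23 ± 0.15, limma adjusted p = 0.000185) and in WT RT (1.51 ± 0.15, limma adjusted p = 4.01e-05). Its enrichment was called in each condition, whereas its input level was called higher in cKO cold than in WT cold.

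**Figure D3:**
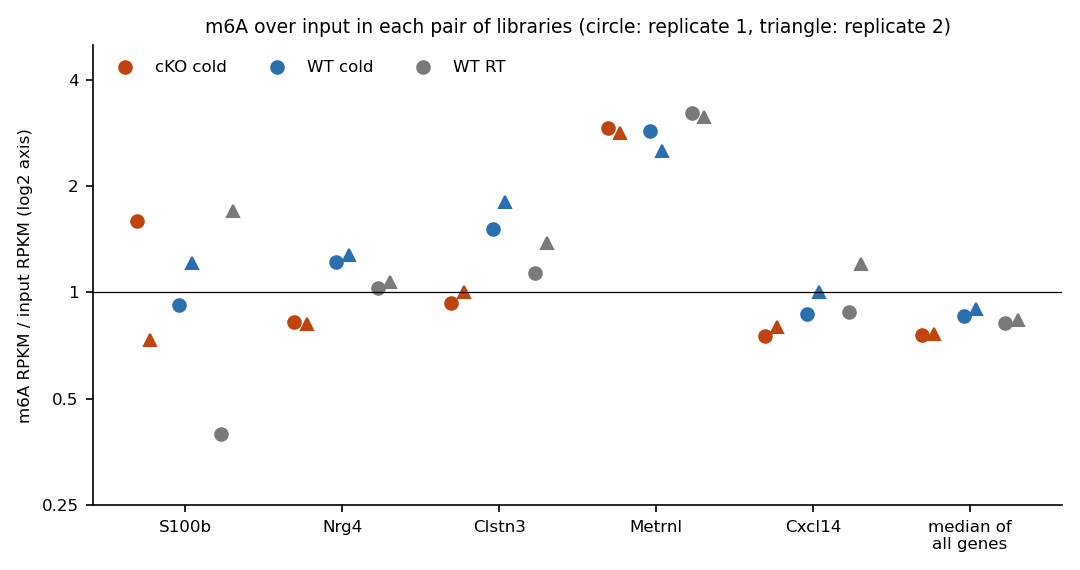
Ratio of m6A RPKM to input RPKM (vertical log2 axis) in each pair of libraries for 5 genes with reads in every pair and for the median of all genes, in cKO cold, WT cold and WT RT. Circles are replicate 1 and triangles replicate 2. Metrnl is between 2.51 and 3.23 in all pairs, and Clstn3 and Nrg4 are highest in WT cold.

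Clstn3 was the other member called higher in m6A, in WT cold alone. Its m6A over input was 0.934 and 1.00 in cKO cold, 1.52 and 1.80 in WT cold, and 1.13 and 1.38 in WT RT, and the 3 conditions did not overlap. In WT cold the log2 difference was 0.68 ± 0.16 (limma adjusted p = 0.00671), lost without WT cold m6A replicate 2 (limma adjusted p = 0.0595). In cKO cold it was -0.04 ± 0.16 (limma adjusted p = 0.843). The change between cKO cold and WT cold was -0.73 ± 0.23, with an unadjusted p of 0.00904 and a limma adjusted p of 0.271.

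Nrg4 had an m6A over input of 0.826 and 0.812 in cKO cold, 1.22 and 1.28 in WT cold, and 1.03 and 1.07 in WT RT. Replicates were close, though the levels themselves differed between replicates. Without pairing, the change between cKO cold and WT cold was -0.58 ± 0.61 (limma adjusted p = 0.834). With the input and m6A libraries of 1 number paired as a block, the same change passed (limma adjusted p = 0.0456). So did the differences from 0 in WT cold (0.31, limma adjusted p = 0.0152) and cKO cold (-0.27, limma adjusted p = 0.0262). Relative to the median gene, Nrg4 stood at 0.43 in WT cold and 0.03 in cKO cold, so its value below 0 in cKO cold is not a depletion beside other genes. In that paired fit 8 genes were called higher and 397 lower, of which Nrg4 was the 1 member. Gdf15, on 34 m6A reads in cKO cold, was called higher in m6A there with pairing alone (0.64, limma adjusted p = 0.0449).

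Fgf21 had 0 RPKM in both cKO cold m6A libraries, against 1.04 and 0.818 RPKM in WT cold, and 0 in WT RT. It was called lower in m6A than in input in WT cold (-0.93 ± 0.27, limma adjusted p = 0.02), on 11 m6A reads, and lost that call under 6 alternatives. Bmp8b had 0.0672 and 0 RPKM in cKO cold m6A libraries, on 1 read in all, against 1.85 and 1.43 RPKM in WT cold, on 60 reads, and 0 in WT RT. As in input, its reads came almost entirely from WT cold. S100b m6A over input ran from 0.398 to 1.71 over the 6 pairs with no separation of the conditions, on 5 to 62 reads per m6A library. Cxcl14 had ratios of 0.750 and 0.796 in cKO cold, 0.867 and 1.00 in WT cold, and 0.882 and 1.21 in WT RT, and Slit2 had 0.621 and 0.707 in cKO cold, 1.36 and 0.277 in WT cold, and 0.605 and 0.632 in WT RT. Neither passed in any condition.

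Ribosome footprints, short RNA pieces that ribosomes protect, were compared between cKO cold and WT cold. Of the 9 members, all tested, 0 were called higher, against 5.61% of 12763 genes, and 2 were called lower (S100b and Bmp8b), against 1.54% of genes. The median gene stood at 0.42. Bmp8b and Fgf21 passed the filter through their WT cold libraries, and Slit2 through those of cKO cold replicate 1, so the Bmp8b call is no support. The count was 1, S100b alone, without WT cold footprint replicate 2, cKO cold footprint replicate 2 or any 1 of the 4 inputs.

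**Figure D4:**
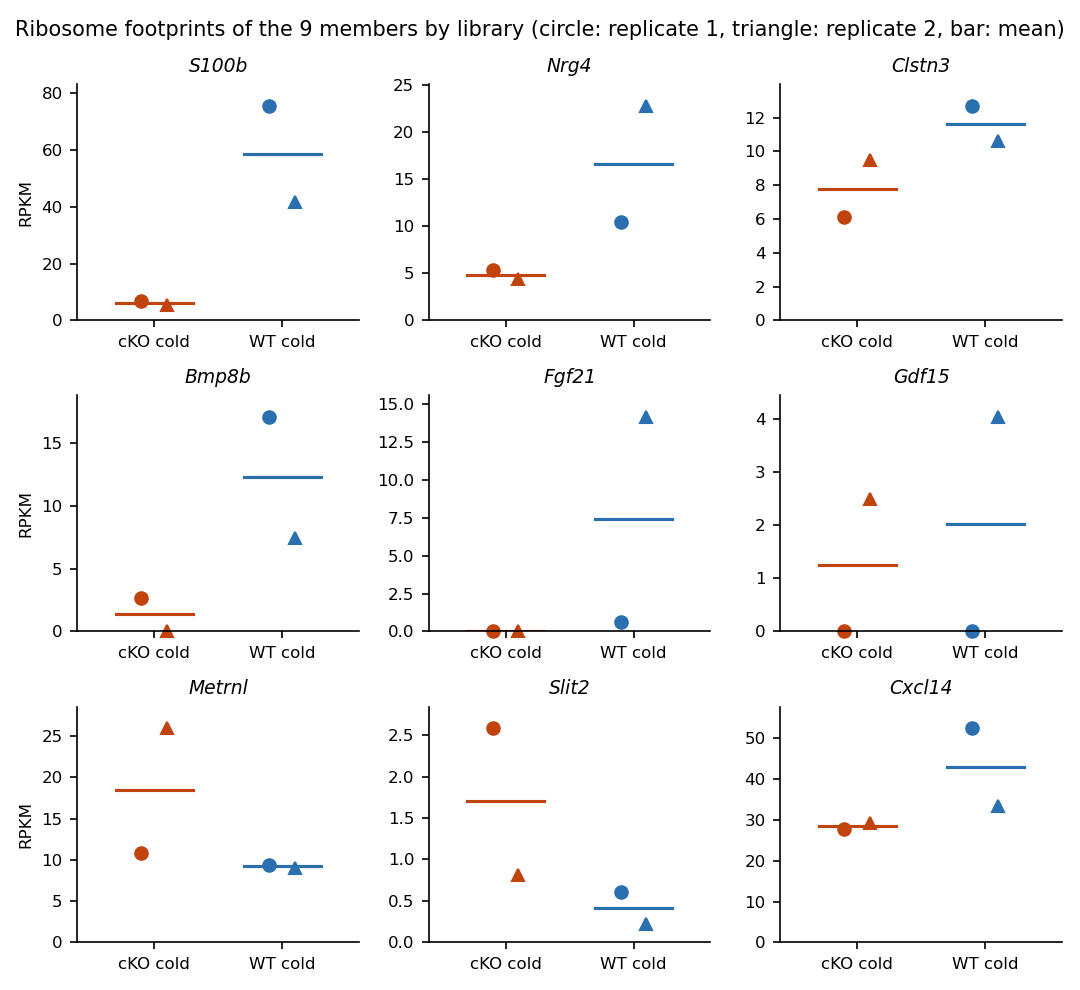
Footprint RPKM (vertical axes from 0) of the 9 genes in each library, for cKO cold at the left and WT cold at the right. Circles are replicate 1, triangles replicate 2 and bars the mean of 2 libraries. S100b is at 6.67 and 5.49 RPKM in cKO cold and at 75.4 and 41.8 RPKM in WT cold. Both cKO cold libraries lie above both of WT cold for 2 members, Metrnl and Slit2, against 47.5% of 12763 genes. They lie below for 6 members, against 8.02% of genes, among them Bmp8b and Fgf21, which passed the filter through WT cold.

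S100b had fewer footprints in cKO cold. It had 6.67 and 5.49 RPKM in cKO cold, against 75.4 and 41.8 RPKM in WT cold. The groups were far apart (log2 fold change -3.02 ± 0.38, limma adjusted p = 0.00941). The call held under each alternative scaling, filter, added value and fit and without any single library of the fit, although the recovered reads were few, at least 4 in cKO cold and at least 37 in WT cold. Summed footprint RPKM of the 19 Schwann cell and nerve markers was 370 and 340 in cKO cold, against 178 and 190 in WT cold. Pmp22 alone had 207 and 231 RPKM in cKO cold, against 87.5 and 87.4 RPKM in WT cold. In WT cold 8 of the 19 were at 0, Sox10 among them. Of the 12 tested, 1 was called higher, against 5.61% of all genes, and 0 lower, against 1.54%. Their median was 0.56, beside 0.42 for all genes, and with median-ratio scaling 0 were called. Cdh19 had 1.59 and 2.79 RPKM in cKO cold footprints, against 2.77 and 4.99 RPKM in WT cold footprints. The part of these cells in the S100b footprints was not tested. Summed RPKM of the 18 thermogenic markers was 743 and 936 in cKO cold footprints, against 11166 and 8006 in WT cold footprints.

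Bmp8b had 2.69 and 0 RPKM in cKO cold footprints, against 17.0 and 7.44 RPKM in WT cold. The groups did not overlap (-2.68 ± 0.59, limma adjusted p = 0.0356), but the call was lost under 9 alternatives (limma adjusted p = 0.0662 to 0.0928). Nrg4 had 5.33 and 4.39 RPKM in cKO cold, against 10.4 and 22.8 RPKM in WT cold, and did not pass (-1.50 ± 0.45, limma adjusted p = 0.0748). Fgf21 was at 0 in both cKO cold footprint libraries, against 0.635 and 14.1 RPKM in WT cold, and did not pass (-2.31 ± 0.85, limma adjusted p = 0.111). Clstn3 had 6.09 and 9.50 RPKM in cKO cold, against 12.7 and 10.6 RPKM in WT cold (-0.55 ± 0.27, limma adjusted p = 0.211), again the smallest difference of the cold-raised nerve cues.

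Metrnl had 10.8 and 26.0 RPKM in cKO cold footprints, against 9.43 and 8.99 RPKM in WT cold. Its increase in input was not matched by a called one in footprints (0.81 ± 0.37, limma adjusted p = 0.175), and the cKO cold replicates differed widely. Cxcl14 had 27.9 and 29.3 RPKM in cKO cold, against 52.5 and 33.5 RPKM in WT cold, below WT cold in footprints and above it in input (-0.54 ± 0.27, limma adjusted p = 0.208). Slit2 had 2.59 and 0.818 RPKM in cKO cold, against 0.605 and 0.227 RPKM in WT cold, with the same replicate high as in input (0.86 ± 0.47, limma adjusted p = 0.242). Gdf15 had 0 and 2.50 RPKM in cKO cold, against 0 and 4.04 RPKM in WT cold, which overlapped.

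Of the related lists in footprints, 1 of 17 receptors and co-receptors was called higher and 0 lower, namely Ret (1.54 ± 0.37, limma adjusted p = 0.0445). Over all genes, 5.61% were called higher and 1.54% lower. Of 21 other secreted factors 5 were called higher and 2 lower (median 0.46, beside 0.42 for all genes). Kng2 fell by 3.75 ± 0.52 (limma adjusted p = 0.0114) and Pm20d1 by 1.87 ± 0.32 (limma adjusted p = 0.0196). Pm20d1 would not have reached the filter of this fit without its WT cold libraries, so its call is no support here either. Of 13 other nerve cues 3 were called higher and 0 lower: Clstn2 (1.97 ± 0.40), Slit3 (1.09 ± 0.24) and Clstn1 (1.02 ± 0.24). With median-ratio scaling 0 receptors, 0 nerve cues and no secreted factor other than Kng2 and Pm20d1 were called.

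Footprints over input of the same condition compare ribosome load between genes. The assays share no length scale, so each ratio is to be read beside that of the median gene. The limma calls are tests against 0, where the median gene stood at 0.67 in cKO cold and 0.63 in WT cold on the log2 scale. The median gene had ratios of 1.78 and 1.78 in cKO cold and of 1.85 and 1.76 in WT cold. S100b had ratios of 1.94 and 2.64 in cKO cold, against 10.1 and 9.86 in WT cold. The conditions were far apart. The recovered footprint reads were few, at least 2 in each cKO cold library and at least 26 and 11 in WT cold. The closeness of the replicates is thus no measure of precision. In cKO cold the log2 difference was 0.93 ± 0.38 (limma adjusted p = 0.0613, or 0.0108 with the libraries of 1 number paired). In WT cold it was 3.10 ± 0.38 (limma adjusted p = 0.000181), and the change between conditions was -2.17 ± 0.53, with an unadjusted p of 0.00281 and a limma adjusted p of 1.00.

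**Figure D5:**
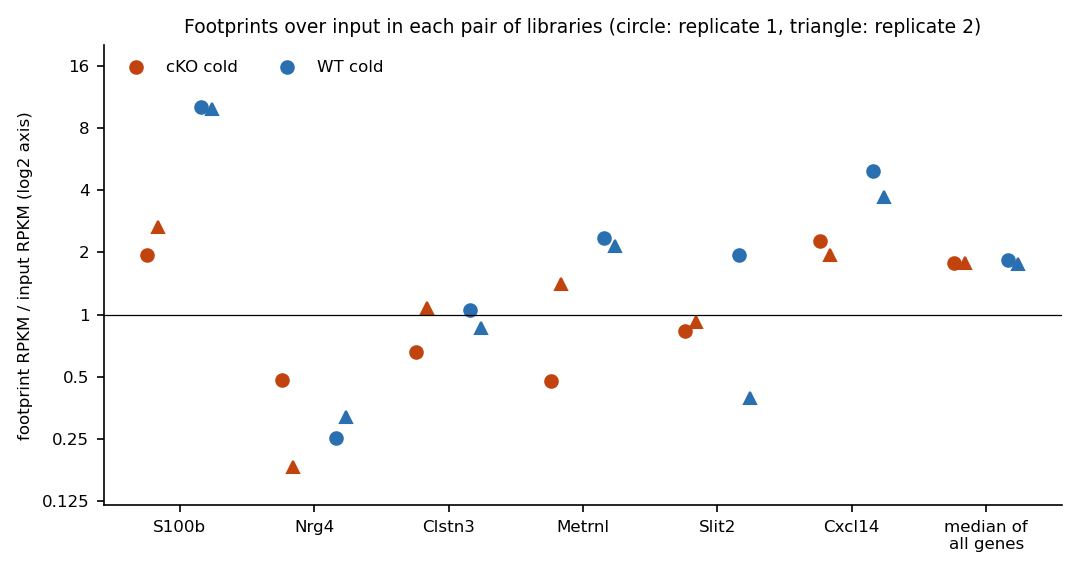
Ratio of footprint RPKM to input RPKM (vertical log2 axis) in each pair of cold libraries for 6 genes with reads in every pair and for the median of all genes, in cKO cold and WT cold. Circles are replicate 1 and triangles replicate 2. S100b is at 1.94 and 2.64 in cKO cold, on at least 2 footprint reads in each library, and at 10.1 and 9.86 in WT cold. Nrg4 runs from 0.183 to 0.483.

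Cxcl14 had ratios of 2.28 and 1.95 in cKO cold, against 4.96 and 3.69 in WT cold, and Metrnl had 0.479 and 1.40 in cKO cold, against 2.34 and 2.16 in WT cold. Their changes of -0.97 ± 0.38 and -1.27 ± 0.52 had unadjusted p-values of 0.0318 and 0.0385 and did not pass after limma adjustment. Nrg4 had low ratios, at 0.483 and 0.183 in cKO cold, against 0.252 and 0.321 in WT cold. It was called lower in footprints than in input in cKO cold (-1.57 ± 0.45, limma adjusted p = 0.0167) and in WT cold (-1.75 ± 0.45, limma adjusted p = 0.0106). Its footprint reads were at least 4 and 4 in cKO cold and at least 9 and 15 in WT cold. The cKO cold call ended without cKO cold input replicate 2 (-1.04) or cKO cold footprint replicate 2 (-1.45). The WT cold call ended without WT cold input replicate 2 (-1.36) or WT cold footprint replicate 1 (-1.22). Members called higher numbered 1 in cKO cold (Cxcl14), against 42.5% of genes, and 4 in WT cold (S100b, Bmp8b, Metrnl and Cxcl14), against 41.7% of genes. Metrnl lost that call under 10 alternatives, other scalings and leaving out any 1 WT cold library or cKO cold input among them (limma adjusted p from 0.0519 to 0.149). Without 1 library the WT cold calls in either direction numbered 2 to 5, the fewest without WT cold input replicate 2. Those called lower numbered 1 in each condition, Nrg4, against 12.7% of genes in cKO cold and 11.5% in WT cold. For a change of footprints over input 0 members and 0% of genes were called (limma), with 459 genes at an unadjusted p under 0.05. Input and footprint libraries of 1 condition also differed in lymphocyte RNA, with T and B cell marker sums of 1376 and 467 in cKO cold footprints against 12.8 and 9.12 in cKO cold inputs, and of 634 and 452 in WT cold footprints against 2.03 and 2.36 in WT cold inputs. The part of that difference in the ratios was not tested.

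For each member tested in input RNA, the 3 other genes most alike over the 6 input libraries were found by the root mean square difference of log2 values, each gene centred on its own mean. Nearest to Nrg4 was Ppargc1b, a coactivator of mitochondrial genes, at 0.172. Nearest to Fgf21 was Ppargc1a, its relative and a regulator of thermogenic genes, at 0.178. Nearest to S100b were Tmem37 at 0.189 and Tfrc, the transferrin receptor, at 0.256. Nearest to Clstn3 were 4931406C07Rik at 0.129, Hsd17b12, a fatty acid elongation enzyme, and Plin2, a lipid droplet protein. Nearest to Bmp8b were Acadvl, an enzyme of fatty acid oxidation, and mt-Atp6, both at 0.099, and Pank1. Nearest to Metrnl were Ubtd1 at 0.135, Tnfaip6, a hyaluronan-binding protein induced in inflammation, and Tmem132a. Nearest to Cxcl14 was Mkks at 0.085, and nearest to Gdf15 was Tmcc3 at 0.086. These are descriptions over 6 libraries in 3 conditions. The added 1 RPKM understates changes of low genes, so the likeness of Bmp8b and Fgf21 to more abundant genes depends on it. Bmp8b had 0 RPKM in WT RT and 1.96 and 1.68 RPKM in WT cold. Acadvl had 40.1 and 45.2 RPKM in WT RT and 130 and 125 RPKM in WT cold.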

How the data were processed

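The deposited values are RPKM, made by the authors, for 17883 genes in 16 libraries (8 groups of 2), with HISAT2 and mm10 among the tools and builds of the submitters' processing notes. The counting tool and annotation are not given in the sources used here. RPKM values scale with the make-up of a library, so a few very abundant genes shift all others. Reads were recovered because values are whole multiples of what 1 read is worth (100.0% of genes, within 0.001 read plus 3e-08 of the reads). Footprint reads are lower bounds. Intervals (95%, exact, conditional on the sum of reads) and the floor of 3 reads over a group cover counting error only.

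Tests were two-sided and used limma 3.58.1 (R 4.3.3; lmFit and trended eBayes) on log2(RPKM + 1). A gene was tested if 2 or more libraries of the fit reached 1 RPKM, with Benjamini-Hochberg adjustment over all genes tested. The fits held 6 input libraries, 12 input and m6A libraries, and 8 cold input and footprint libraries, with 3, 6 and 4 residual degrees of freedom. Adding 1 RPKM understates changes of low genes. The scripts were tested on simulated data. Figures were drawn with matplotlib 3.10.9 in Python 3.11.15.

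All 9 members are reported in each comparison. From the related lists, some of the genes that passed in the input comparison were named, mostly from the 3 with the largest change. Direct receptors and paralogs of members were named whatever their values, though not in every comparison. The rest of a list is given as counts or sums. Lists of adipocyte, endothelial, epithelial and stress-response genes were also drawn up and are not described. The members and lists were chosen with earlier results of these data known. Nothing in the labels ties the replicates to separate animals, and p-values measure the spread between libraries. Deviations from group means correlated at 0.305 to 0.656 between libraries of 1 condition and number (7 pairs of libraries, 8464 genes) and at -0.099 to 0.078 across conditions. The numbers were treated as pairing libraries of 1 condition. This rests on the data, since the labels do not state it. Alternatives were another added value, no or a stricter filter, median-ratio and quantile scaling, 1 fit of all libraries, no trend, a replicate block, each library left out and, chosen after seeing the data, voom on recovered input and m6A reads.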

Additional observations from a re-analysis of the deposited data

Results flagged for a closer look

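In Nrg4, m6A over input lay on opposite sides of 0 in the cold conditions. The mean log2 difference was -0.27 in cKO cold, with both pairs below 0, and 0.31 in WT cold, with both pairs above 0. Relative to the median gene, Nrg4 stood at 0.03 in cKO cold and 0.43 in WT cold, so the opposite signs hold against 0 alone. The interaction gave a limma adjusted p of 0.834 without pairing and 0.0456 with the pairs as a block. In Gdf15, the mean was 0.64 in cKO cold, with both pairs above 0, against -0.10 in WT cold, with both pairs below 0 (limma adjusted p of the difference 0.784). It was also -0.10 in WT cold against 0.28 in WT RT, where both pairs were above 0 (limma adjusted p of the difference 0.9). Relative to the median gene, Gdf15 stood at 0.94 in cKO cold, 0.02 in WT cold and 0.53 in WT RT. Gdf15 rests on 0 to 24 m6A reads per library, and WT cold replicate 1 held 1 input read and 0 m6A reads.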

How the results depend on the processing

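Of 1712 member values set beside their main value, 1640 stayed on the same side of the threshold, 50 lost a call and 22 gained one. Among the 1640, 79 uncalled values in 39 results took the other sign, and no called value did. Counts of members called moved as follows. Without 1 library, calls in WT cold over WT RT input ranged from 3 to 6, in cKO cold over WT cold input from 1 to 3, in m6A enrichment from 1 to 2 for cKO cold, from 1 to 3 for WT cold and at 1 for WT RT, in cKO cold over WT cold footprints from 1 to 2, and in footprints over input from 1 to 3 for cKO cold and from 2 to 5 for WT cold. With no filter on low values the cKO cold over WT cold calls were 2 in input and 1 in footprints. With 0.1 RPKM added, m6A enrichment in cKO cold gave 2 and footprints 1. With all 16 libraries in 1 fit, footprints gave 4. With the replicate block, m6A enrichment in cKO cold gave 3 and its change between cKO cold and WT cold 1. The replicate block also called S100b in cKO cold over WT cold input (limma adjusted p = 0.0362) and Nrg4 in footprints (0.0339), although numbers did not pair libraries across conditions. Metrnl in cKO cold over WT cold input and Clstn3 in the cold kept their calls under all alternatives. The causes of these moves were not tested. Over all genes, cold calls split 826 higher and 6488 lower, 2392 and 2532 with median-ratio scaling and 2710 and 2307 with quantile scaling. The cKO cold input calls split 2992 and 370, 764 and 872, and 768 and 669 in that order, and the footprint calls 716 and 196, 121 and 357, and 134 and 288. Depth limits Gdf15, Fgf21, Slit2 and all footprint values most, at 0 to 11 reads in many libraries.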
